A study of Mus musculus with 10 samples.

Results

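The core machinery of apoptosis and necroptosis was followed as a list of 46 mouse genes chosen by name: the BCL2 family, caspases, the apoptosome and the proteins that leave mitochondria with it, inhibitor of apoptosis proteins, death receptors with their adaptors, the necroptosis kinases and their pore, and the DNA fragmentation factor. All 46 were among the 53379 genes of the count files, and 35 averaged 10 reads or more and so were among the 11551 genes tested. The libraries came from neocortex of E16 embryos and held 400 sorted cells each, 1 embryo per library. In 3 cKO-Cdkn1c-MADM-7 embryos (here cKO), the GT and TG cassettes of chromosome 7 were each linked to a Cdkn1c-flox allele. Cdkn1c, which encodes the cell cycle inhibitor p57KIP2, was deleted there by 1 copy of Emx1-Cre, and 7 MADM-7 embryos (MADM-7 GT/TG;Emx1 Cre/+, here control) carried the same Cre and cassettes without the floxed allele. Both groups had a mixed C57BL/6J and CD1 background.

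MADM (mosaic analysis with double markers) places split GFP and tdTomato cassettes on a chromosome so that Cre-driven recombination between the copies labels sparse cells. Cells with GFP, tdTomato or both were collected as 1 sorted population, so the cKO and control cells differ in genotype and not in colour. Emx1-Cre acts in the progenitors of cortical excitatory neurons and their progeny, and with both Cdkn1c alleles floxed the deletion was not limited to labelled cells. The reads of Cdkn1c numbered 10 to 32 per cKO library and 116 to 369 per control (log2 fold change -3.66, SE 0.38, adjusted p = 3.68e-06 by edgeR).

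In the mitochondrial route of apoptosis, BH3-only proteins sense damage, loss of trophic support or stress and bind anti-apoptotic BCL2 proteins, which frees BAX and BAK to open the outer mitochondrial membrane. Cytochrome c then joins APAF1 in the apoptosome and activates caspase-9, while DIABLO and HTRA2 relieve the block that inhibitor of apoptosis proteins place on caspases. Death receptors reach caspases through FADD and caspase-8, and where caspase-8 is held back RIPK1, RIPK3 and MLKL can kill the cell by necroptosis. In the developing cortex apoptosis removes progenitors and newborn neurons, and BAX is the main effector in neurons.

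The sorted cells carried the markers of the labelled tissue. The summed level of 10 projection neuron markers was 2594 to 2746 CPM (reads per 1000000 after TMM normalization) in cKO and 3915 to 5093 CPM in controls, and 4 of the 10 were lower in cKO by edgeR at an adjusted p under 0.05. Of all genes tested, 0.883% were lower and 2.27% were higher at that threshold. Markers of radial glial progenitors summed to 1467 to 2548 CPM in cKO and 1583 to 2599 CPM in controls, and 0 of 9 passed. Markers of Cajal-Retzius cells also differed, with 577.9 to 710.2 CPM in cKO, 16.3 to 176.6 CPM in controls and 6 of 6 tested markers higher. Interneuron markers summed to 42.5 to 146.4 CPM in cKO and 17.3 to 114.1 CPM in controls, and 1 of 7 tested was higher by the adjusted threshold, with all 7 log2 fold changes above 0 and 4 past an unadjusted p of 0.05. Microglial markers, none of which reached the read minimum, summed to 7.49 to 50.1 CPM in cKO and 1.07 to 6.48 CPM in controls. In bulk libraries fewer cells of a type and less RNA per cell cannot be told apart, and the part of these marker levels in the results below was not tested.

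Of the 35 tested members, 2 were higher in cKO at an adjusted p under 0.05 (5.71%, with 2.27% of all genes tested higher) and 0 were lower (0.883% of all genes tested), both higher genes being BH3-only genes, Hrk and Bbc3. At an unadjusted p under 0.05, 4 of the 35 members were higher, as were 9.25% of all genes tested, and 4 were lower, as were 7.11% of all genes tested. The log2 fold changes of the 35 members were above 0 in 19 and below 0 in 16, with a median of 0.07, and the median over all genes tested was 0.01. For 22 of the 35, the 95% interval of the log2 fold change lay within a range of 1 to either side of 0.

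**Figure D1:**
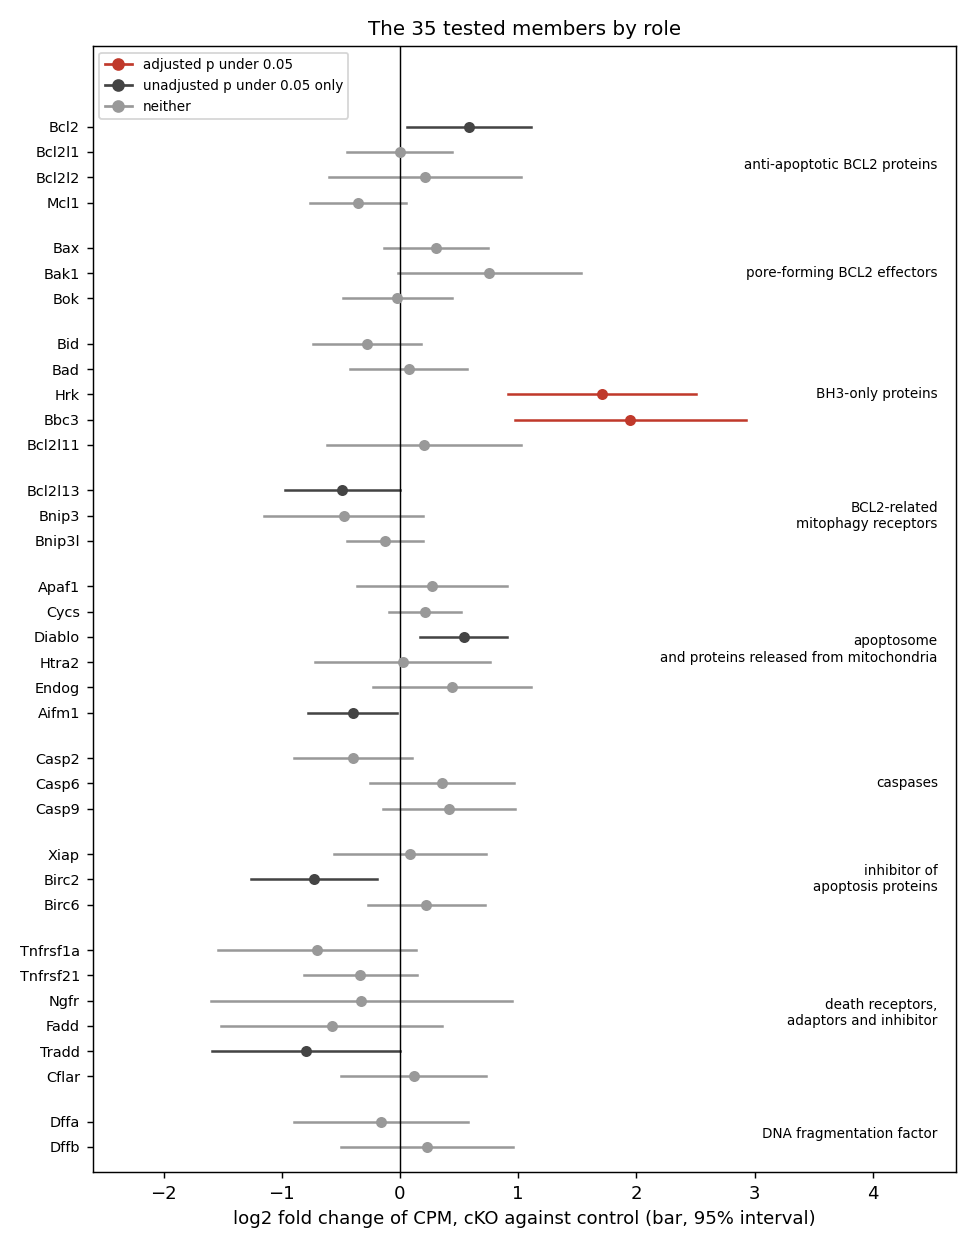
Log2 fold change of each tested member (x axis, cKO against control, edgeR) with its 95% interval, grouped by role on the y axis. Hrk and Bbc3, in red, lie at 1.71 and 1.95, and every other member lies between -0.80 and 0.76.

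Library by library, cKO replicate 1 was the highest or the lowest of the 10 libraries for 15 of the 35 members (42.9%) and for 37.0% of all genes tested, more than any other library on both counts. That cKO library also had the highest summed level of immediate early and heat shock genes of the dissociation response, 2826 CPM against 1368 and 1988 CPM in the other cKO libraries and 765.9 to 1413 CPM in controls, and 2301 CPM of blood genes against 20.4 and 34.7 CPM in the other cKO libraries and 0.36 to 1817 CPM in controls. Of 7 tested genes of the dissociation response, 4 were higher in cKO (57.1%, with 2.27% of all genes tested higher). Log2 fold changes without cKO replicate 1 are given below for the members past an unadjusted p of 0.05 and for those that it moved most. Control replicate 6 was the highest or the lowest for 12 of the 35 members (34.3%), 9 times as the highest, and for 18.9% of all genes tested.

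BH3-only genes were the only group with members past the threshold, 2 of 5 tested. The promoters of Hrk and Bbc3 are shown because these genes carry the result. Both are RefSeq windows on GRCm38.p6 from 250 bases before to 50 bases after the annotated start, on the plus strand, at chr5:118169514-118169813 for Hrk and at chr7:16309333-16309632 for Bbc3. Both windows lie inside the GENCODE gene spans given below and downstream of their first base, so the annotated RefSeq start is not the start of those spans. Capitals mark the only match to the motifs searched.
Hrk: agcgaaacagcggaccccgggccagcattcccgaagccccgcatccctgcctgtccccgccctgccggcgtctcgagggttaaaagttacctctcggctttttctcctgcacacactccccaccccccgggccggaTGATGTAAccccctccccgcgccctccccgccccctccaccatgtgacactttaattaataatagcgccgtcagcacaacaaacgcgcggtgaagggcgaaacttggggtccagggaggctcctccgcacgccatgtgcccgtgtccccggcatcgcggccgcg
Bbc3: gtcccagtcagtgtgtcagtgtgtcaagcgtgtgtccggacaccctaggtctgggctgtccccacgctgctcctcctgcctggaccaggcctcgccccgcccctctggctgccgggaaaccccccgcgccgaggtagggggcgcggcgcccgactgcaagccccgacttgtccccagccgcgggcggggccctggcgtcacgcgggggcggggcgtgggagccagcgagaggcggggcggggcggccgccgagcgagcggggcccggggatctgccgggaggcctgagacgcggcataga
The match in the Hrk window, 114 bases before the start on the printed strand, is to TGATGNAA, the core of the amino acid response element bound by ATF4 with C/EBP partners, which 3.97% of 32851 promoter windows of this length held on either strand. The other motifs searched on both strands were the AP-1 site TGANTCA, held by 7.81% of windows, and the p53 half-site, held by 8.36%. Neither was found in the Hrk window, none of the motifs was found in any of 3 windows of Bbc3, and no matches overlapped. Of the 42 members with a window in the table, 2 (Hrk and Dffa) held the first motif, 1 (Fas) the AP-1 site and 3 (Bax, Birc2 and Bmf) the p53 half-site. A match in letters is a description and not evidence of binding, and the windows do not cover introns or distal sites.

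Hrk (ENSMUSG00000046607.6, chromosome 5, 118164648 to 118189478, plus strand), which encodes Harakiri, a BH3-only protein of neurons that binds BCL2 and BCL-XL, was at 27.7, 21.3 and 9.76 CPM in cKO replicates 1 to 3. In control replicates 1 to 7 it was at 5.08, 10.3, 7.95, 4.54, 7.57, 4.32 and 3.20 CPM. Replicates 1 and 2 of the cKO lay above every control, and replicate 3 lay below control replicate 2 and above the others, so the groups overlapped in 1 pair of libraries. Its log2 fold change was 1.71 (SE 0.38, 95% interval 0.92 to 2.5, adjusted p = 0.0158 by edgeR). Without cKO replicate 1 it was 1.35 (SE 0.41, adjusted p = 0.109), and with the other 9 libraries left out in turn it ran from 1.59 to 2.01, each past the threshold. The call was also lost with a replicate block (1.28, adjusted p = 0.248), although the numbers do not pair the libraries. With every gene with at least 1 read fitted and cKO replicate 1 left out, Hrk had 1.34 (SE 0.40, adjusted p = 0.0388 by edgeR), an alternative added after the data were seen. Its size hardly moved from 1.35, and dropping the read minimum also changed the fitted variance. With all libraries kept, the SE of Bbc3 was 0.28 without the read minimum and 0.46 with it, so that call does not restore the lost one.

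Bbc3 (ENSMUSG00000002083.13, chromosome 7, 16308393 to 16318205, plus strand), which encodes PUMA, the BH3-only protein that p53 induces and that binds every anti-apoptotic BCL2 protein, was at 127.5, 16.2 and 38.6 CPM in cKO replicates 1 to 3. In control replicates 1 to 7 it was at 23.2, 13.9, 13.2, 9.40, 7.57, 22.3 and 21.7 CPM. Replicate 2 of the cKO lay inside the control range, replicate 3 above it and replicate 1 far above both. The log2 fold change was 1.95 (SE 0.46, 95% interval 0.98 to 2.92, adjusted p = 0.0213 by edgeR). Without cKO replicate 1 it was 0.74 (SE 0.39, adjusted p = 0.372), a log2 value less than the 95% half-width of 0.82, so the size and the call both rested on that library. It also missed the threshold by a small margin without control replicate 3 (1.89, adjusted p = 0.0507), and it missed it in limma-voom (1.57, adjusted p = 0.119).

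Pmaip1, which encodes NOXA, the BH3-only protein that binds MCL1, fell under the read minimum with a mean of 5.7 reads. It had 17, 17 and 5 reads in cKO replicates 1 to 3 and 6, 0, 7, 3, 0, 1 and 1 in control replicates 1 to 7. Replicates 1 and 2 lay above every control and replicate 3 lay within the control range. When every gene with at least 1 read was fitted, its log2 fold change was 2.33 (SE 0.68, adjusted p = 0.0103 by edgeR), and 2.21 (SE 0.74, adjusted p = 0.072) with cKO replicate 1 left out as well. Dropping the read minimum changed the fitted variance, as given above for Bbc3, so these adjusted p values may overstate the evidence from so few reads. Bmf, induced by detachment and cytoskeletal stress, was the other BH3-only gene under the minimum, with 2 to 5 reads in cKO and 2 to 9 in controls.

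**Figure D2:**
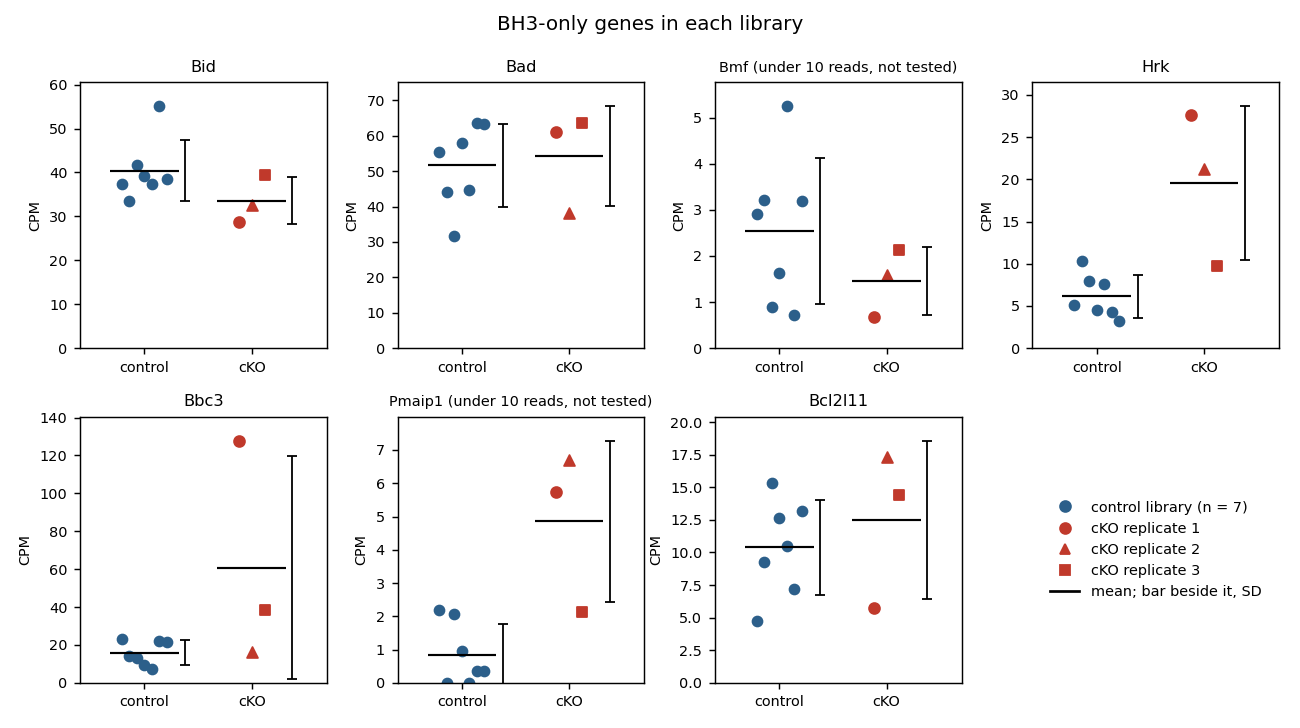
CPM of each BH3-only gene in the 7 control and 3 cKO libraries (y axis from 0, own scale per gene; line, mean; bar, SD). The cKO points of Hrk and Pmaip1 lie mostly above the controls, the spread of Bbc3 in cKO includes replicate 1 at 127.5 CPM, and Bid, Bad and Bcl2l11 overlap between the groups.

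The remaining BH3-only genes overlapped between the groups. Bad, which is held inactive by growth factor signalling, had the highest level per length of the group in controls, 20.2 RPKM ± 4.6 (SD, n = 7), where RPKM is CPM per kilobase of merged exons, and 21.2 RPKM ± 5.47 (SD, n = 3) in cKO. Bid, cleaved by caspase-8 to link death receptors to mitochondria, had a log2 fold change of -0.28 (SE 0.22). Bcl2l11 (BIM), induced on loss of trophic support, had one of 0.21 (SE 0.39), with 5.73, 17.3 and 14.4 CPM in cKO replicates 1 to 3 and 4.72 to 15.3 CPM in controls. That log2 fold change was 0.59 without cKO replicate 1 and -0.14 without cKO replicate 2. In controls Hrk was at 1.1 RPKM ± 0.45 (SD, n = 7), next to Bcl2l11 at 1.30 RPKM ± 0.46 with overlapping ranges, and Bbc3 was at 7.49 RPKM ± 3.04. In cKO Hrk was at 3.45 RPKM ± 1.6 (SD, n = 3) and Bbc3 at 28.6 RPKM ± 27.7, so the SD of Bbc3 was about as large as its mean.

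Among the anti-apoptotic members, which BH3-only proteins neutralize, 0 of 4 passed the adjusted threshold. Bcl2l1 (BCL-XL) had the highest level per length, 27.9 RPKM ± 5.10 (SD, n = 7) in controls and 27.8 RPKM ± 10.4 (SD, n = 3) in cKO. Its log2 fold change of -0.003 (SE 0.21, 95% interval -0.44 to 0.44) changed sign with the scaling and stayed within the spread between libraries, and was -0.35 without cKO replicate 1 and 0.21 without cKO replicate 2. Mcl1, a short-lived protein that neural progenitors need to survive, was next at 26.1 RPKM ± 2.92 in controls, and its log2 fold change was -0.36 (SE 0.19, adjusted p = 0.379 by edgeR), -0.13 without cKO replicate 1 and -0.58 without cKO replicate 2.

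Bcl2 (chromosome 1, 106538178 to 106714274, minus strand) had the largest log2 fold change of this group. It was at 36.1, 46.1 and 22.5 CPM in cKO replicates 1 to 3, and at 18.1, 23.3 and 28.5 CPM in the lowest, median and highest control. Replicates 1 and 2 lay above all controls, and replicate 3 lay among them. Its log2 fold change was 0.58 (SE 0.25), with an unadjusted p of 0.0304 and an adjusted p of 0.242 by edgeR. Without cKO replicate 1 it was 0.56 and without cKO replicate 2 it was 0.34, with unadjusted p values of 0.0689 and 0.241 by edgeR. Bcl2l2 (BCL-W) had 11 to 54 reads per library and a log2 fold change of 0.21 (SE 0.38).

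The pore-forming effectors included the most abundant members per length, and 0 of 3 passed. Bax was at 95.8 RPKM ± 18.4 (SD, n = 7) in controls and 118.3 RPKM ± 41.8 (SD, n = 3) in cKO, the highest of all 46 members in both groups. Its CPM values of 244.9, 115.0 and 199.4 in cKO replicates 1 to 3 spanned more than the control range of 117.0 to 199.2 CPM (log2 fold change 0.30, SE 0.21, adjusted p = 0.508 by edgeR), and the log2 fold change was 0.05 without cKO replicate 1 and 0.54 without cKO replicate 2 (unadjusted p = 0.00945 and adjusted p = 0.121 by edgeR in the latter). Bok, a BAX relative abundant in brain, followed at 87.9 RPKM ± 11.5 in controls, a level that did not differ from that of Bax beyond the spread. The log2 fold change of Bok was -0.02 (SE 0.22), and 0.21 without cKO replicate 2. Without cKO replicate 1 it was -0.53, with an unadjusted p of 0.0085 and an adjusted p of 0.137 by edgeR. Bak1 was far lower, at 2.14 RPKM ± 0.66 in controls, and had the largest log2 fold change of the 3, 0.76 (SE 0.37, adjusted p = 0.327). Its cKO values of 9.11, 6.70 and 9.76 CPM overlapped with controls of 2.35 to 6.89 CPM only in replicate 2, and 25.5% of its exon length is shared with other genes, whose reads were left out of the counts.

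**Figure D3:**
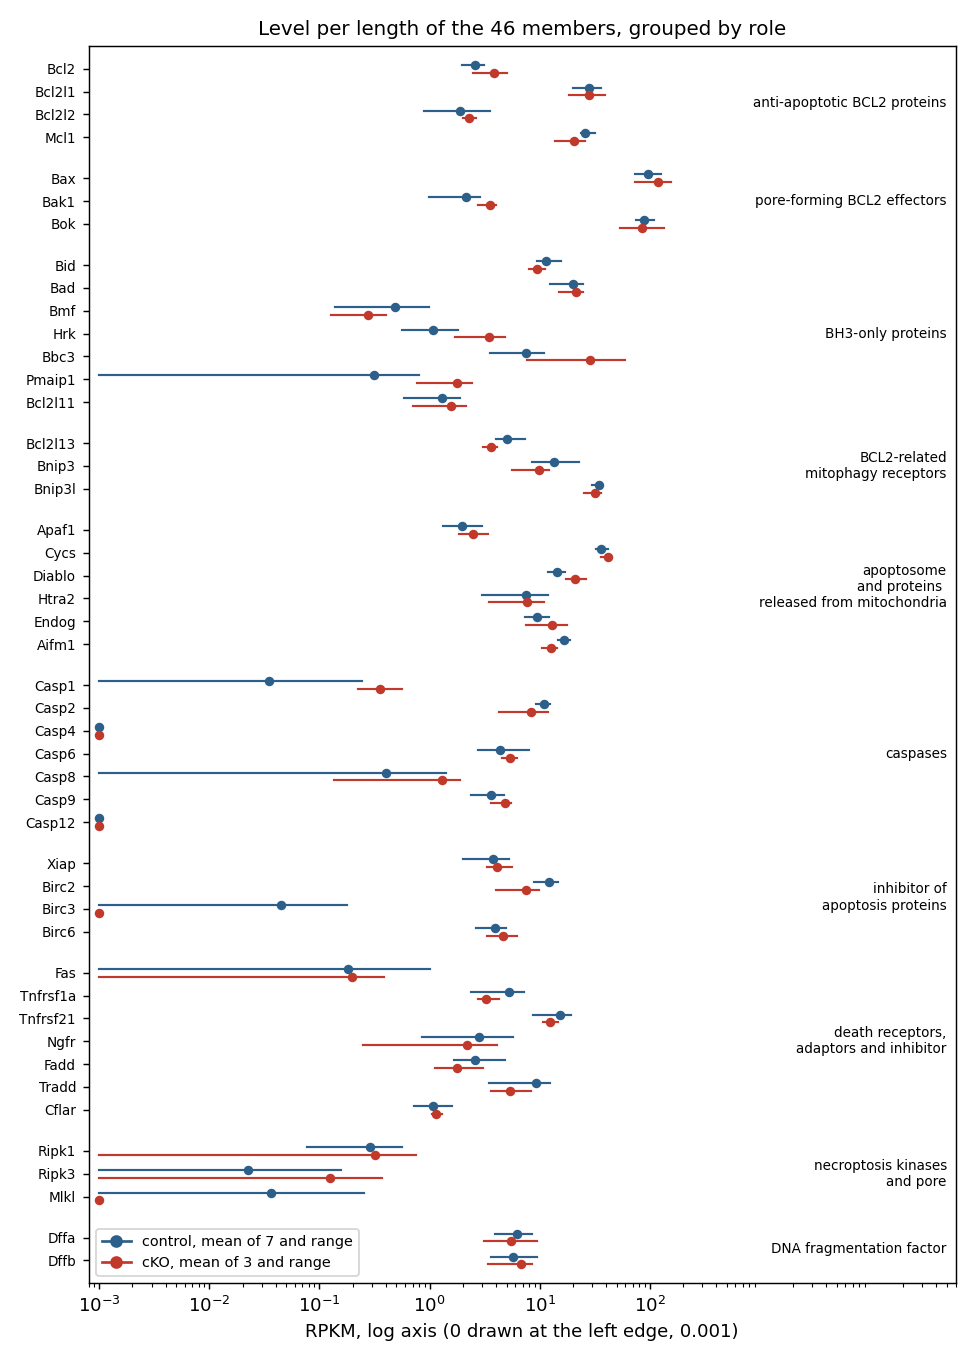
Level per length of all 46 members in RPKM (log x axis; dot, group mean; line, lowest to highest library; values of 0 drawn at the left edge), grouped by role. Bax and Bok lie at the right with control means of 95.8 and 87.9 RPKM, and Casp4, Casp12, Birc3, Ripk3 and Mlkl lie near or at 0.

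Of the apoptosome and the proteins released from mitochondria, all 6 were tested and 0 passed the adjusted threshold. Cycs, which encodes somatic cytochrome c, was the third most abundant member per length, at 36.4 RPKM ± 3.24 (SD, n = 7) in controls and 42.1 RPKM ± 5.31 (SD, n = 3) in cKO, with a log2 fold change of 0.21 (SE 0.14). Apaf1, the scaffold of the apoptosome, was at 1.99 RPKM ± 0.58 in controls and had a log2 fold change of 0.27 (SE 0.30).

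Diablo (chromosome 5, 123509765 to 123524176, minus strand), whose product SMAC displaces inhibitor of apoptosis proteins from caspases, had the largest log2 fold change of the group. It was at 107.6, 117.8 and 161.6 CPM in cKO replicates 1 to 3 and at 74.2, 83.3 and 104.6 CPM in the lowest, median and highest control. All cKO libraries lay above all controls, as for 3.32% of all genes tested, and Diablo was the only tested member to do so. The log2 fold change was 0.54 (SE 0.17), with an unadjusted p of 0.00612 and an adjusted p of 0.108 by edgeR. It was 0.65 without cKO replicate 1 and 0.35 without cKO replicate 3, the latter with an unadjusted p of 0.0762 by edgeR. Once the fraction of reads that fell outside genes entered as a covariate, the adjusted p was 0.0327, and 40.9% of its exon length is shared with other genes.

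Aifm1 (chromosome X, 48474944 to 48513563, minus strand), a mitochondrial flavoprotein that maintains respiratory complexes and moves to the nucleus in cell death, went the other way. It was at 42.5, 53.2 and 57.7 CPM in cKO replicates 1 to 3 and at 59.0, 68.3 and 75.9 CPM in the lowest, median and highest control. All cKO libraries lay below all controls, as for 2.68% of all genes tested, and no other tested member did so. Its log2 fold change was -0.40 (SE 0.18), with an unadjusted p of 0.039 and an adjusted p of 0.269 by edgeR. Without cKO replicate 1 it was -0.28, with an unadjusted p of 0.159 by edgeR. Htra2 and Endog, a serine protease and a nuclease of mitochondria, had log2 fold changes of 0.02 (SE 0.35) and 0.44 (SE 0.32). That of Htra2 was -0.36 without cKO replicate 1 and 0.35 without cKO replicate 2, and that of Endog was 0.16 without cKO replicate 2 and 0.69 without cKO replicate 3. Of their exon length 43.7% and 35.6% is shared with other genes, and with the strand columns summed, which gave 2.79 times the reads for each, the log2 fold changes were 0.16 and 0.10.

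Of 7 caspases in the list, 3 were tested and 0 passed. Casp2, activated by the PIDDosome, had the highest level per length of the caspases, 10.9 RPKM ± 1.27 (SD, n = 7) in controls and 8.41 RPKM ± 3.86 (SD, n = 3) in cKO (log2 fold change -0.39, SE 0.24). That value rested on single libraries, with -0.06 without cKO replicate 1 and -0.75 without cKO replicate 2. Casp9, the caspase of the apoptosome, had the largest log2 fold change, 0.41 (SE 0.27, adjusted p = 0.479 by edgeR), with 28.3, 18.9 and 27.6 CPM in cKO replicates 1 to 3 and 12.3 to 24.9 CPM in controls. Casp6, an executioner also known for axon degeneration, had one of 0.35 (SE 0.29).

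The other caspases were near the limit of detection. Casp8, the initiator at death receptors, had 16, 1 and 13 reads in cKO replicates 1 to 3 and 0, 3, 0, 5, 7, 4 and 0 in control replicates 1 to 7. Replicates 1 and 3 exceeded every control and replicate 2 did not, and with every gene fitted the log2 fold change was 1.88 (SE 0.70, adjusted p = 0.104 by edgeR). Casp1, the inflammatory caspase, had 1, 1 and 2 reads in cKO and 1 read in the controls, in replicate 1. Casp4 and Casp12 had 0 of 27428324 reads, which allows a level of up to 0.109 CPM over all libraries.

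Among the inhibitor of apoptosis proteins, Birc2 (chromosome 9, 7818227 to 7837064, minus strand), which encodes the ubiquitin ligase cIAP1 of the TNF receptor pathway, had both the highest level per length in controls, 12.3 RPKM ± 1.84 (SD, n = 7), and the largest log2 fold change. It was at 18.2, 40.2 and 45.4 CPM in cKO replicates 1 to 3 and at 40.5, 57.0 and 67.8 CPM in the lowest, median and highest control. Replicates 1 and 2 lay below all controls, and replicate 3 lay above 1 of them. The log2 fold change was -0.73 (SE 0.25), with an unadjusted p of 0.0103 and an adjusted p of 0.141 by edgeR. Without cKO replicate 1 it was -0.40, with an unadjusted p of 0.0922 by edgeR. Xiap, a direct caspase inhibitor, and Birc6, a large ubiquitin ligase, had log2 fold changes of 0.09 (SE 0.31) and 0.22 (SE 0.23), and Birc3 (cIAP2) had 0 reads in cKO and 0 to 3 in controls.

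For the DNA fragmentation factor, Dffa, the inhibitor and chaperone, was at 6.18 RPKM ± 1.77 (SD, n = 7) in controls with a log2 fold change of -0.16 (SE 0.35), and Dffb, the nuclease, had one of 0.23 (SE 0.35). Both overlapped between the groups. Without cKO replicate 1 the value for Dffa was -0.89, with an unadjusted p of 0.0287 and an adjusted p of 0.24 by edgeR, and that for Dffb was 0.0086. Without cKO replicate 2 they were 0.11 and 0.53.

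On the death receptor side 6 of 7 members were tested, 5 had a log2 fold change below 0, and 0 passed the adjusted threshold. Over all genes tested, 5630 of 11551 lay below 0. Tnfrsf21 (DR6), a receptor of neurons, had the highest level per length, 15.3 RPKM ± 3.81 (SD, n = 7) in controls and 12.3 RPKM ± 2.01 (SD, n = 3) in cKO, with a log2 fold change of -0.34 (SE 0.23). Tradd (chromosome 8, 105258286 to 105264609, minus strand), the adaptor of TNF receptor 1, had the largest difference. It was at 15.5, 6.70 and 8.06 CPM in cKO replicates 1 to 3 and at 6.40, 19.6 and 23.0 CPM in the lowest, median and highest control. Replicates 2 and 3 of the cKO lay below every control except replicate 5, which held the lowest value, and replicate 1 lay above controls 5 and 6. Its log2 fold change was -0.80 (SE 0.38), with an unadjusted p of 0.0417 and an adjusted p of 0.279 by edgeR. It was -1.30 without cKO replicate 1 and -0.58 without cKO replicate 2, the latter with an unadjusted p of 0.159 by edgeR.

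The receptor of that adaptor, Tnfrsf1a, had a log2 fold change of -0.70 (SE 0.40) and the adaptor Fadd one of -0.58 (SE 0.44). For Fadd it was -0.31 without cKO replicate 1 and -1.15 without cKO replicate 3, the latter with an unadjusted p of 0.0402 and an adjusted p of 0.273 by edgeR. Ngfr (p75NTR) had the largest SE of the tested members, with 14.2, 7.49 and 0.85 CPM in cKO replicates 1 to 3 and 2.91 to 19.8 CPM in controls (log2 fold change -0.33, SE 0.60, -1.21 without cKO replicate 1 and 0.15 without cKO replicate 3). Cflar (c-FLIP), the inhibitor of caspase-8 activation, was at 1.07 RPKM ± 0.26 in controls with a log2 fold change of 0.12 (SE 0.29). Fas had 0, 2 and 1 reads in cKO and at most 7 in a control.

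None of the 3 necroptosis genes reached the read minimum in these cells. Ripk1, the kinase shared by the survival and death arms of TNF signalling, had 0, 16 and 4 reads in cKO replicates 1 to 3 and 2 to 10 in controls, and 9.0% of its exon length is shared with other genes. Those were 63 reads in all, against 174 with the strand columns summed, where it passed the minimum with a log2 fold change of -0.007 (SE 0.41), so its value depended on the count column. Ripk3, the kinase that phosphorylates MLKL, had 3 reads in all, 2 in cKO replicate 3 and 1 in control replicate 1, and the cKO library that held them had the highest summed microglial markers, 50.1 CPM. Mlkl, the pore of necroptosis, had 1 read in all, in control replicate 5. A difference between genotypes was not detectable at this depth for Ripk3 and Mlkl.

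The BCL2-related mitophagy receptors were listed with the family, and a known role of theirs is the removal of mitochondria. Bnip3l (NIX) was the most abundant, at 34.6 RPKM ± 2.79 (SD, n = 7) in controls and 31.9 RPKM ± 5.77 (SD, n = 3) in cKO. Bcl2l13 (chromosome 6, 120836212 to 120892842, plus strand) had the largest log2 fold change, -0.49 (SE 0.23), with an unadjusted p of 0.048 and an adjusted p of 0.298 by edgeR, and -0.38 without cKO replicate 1. It was at 28, 37.4 and 32.2 CPM in cKO replicates 1 to 3 and at 36.3, 44.1 and 67.2 CPM in the lowest, median and highest control, so that cKO replicate 2 overlapped with 1 control. Bnip3, induced by hypoxia, had a log2 fold change of -0.48 (SE 0.32), which was -0.21 without cKO replicate 2 and -0.32 with the strand columns summed.

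Other genes around the pathway were counted in 3 lists, chosen with results of these data known, so their counts are a description. Of 52 other cell death genes 34 were tested, 1 was higher (2.94%, with 2.27% of all genes tested higher) and 0 were lower. The higher gene was Birc5 (survivin), a mitotic protein of the inhibitor of apoptosis family, at 45.9, 111.9 and 117.1 CPM in cKO and 28.5 to 68.7 CPM in controls (log2 fold change 1.09, SE 0.28, adjusted p = 0.0361 by edgeR). Its groups overlapped in cKO replicate 1, and the call was lost without cKO replicate 3 and without each of 5 controls.

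Of 35 p53 target genes, 5 of which (Bax, Bbc3, Pmaip1, Apaf1 and Fas) are members, 26 were tested. Of the 26, 8 were higher (30.8%, with 2.27% of all genes tested higher) and 0 were lower. Beside Bbc3 these were Cdkn1a, which encodes the cell cycle inhibitor p21 (log2 fold change 3.27, SE 0.38), the AKT repressor Phlda3 (2.39, SE 0.28), the stress-induced Sesn2 (2.70, SE 0.34), the ectodysplasin receptor Eda2r (4.19, SE 0.83), the mitotic genes Gtse1 (1.75, SE 0.31) and Psrc1 (1.54, SE 0.23), and the spindle gene Ckap2 (0.93, SE 0.24). Of these 7, all but Ckap2 had every cKO library above every control, and Ckap2 missed the threshold under 13 of 21 alternatives and Eda2r in DESeq2. Of the 26 tested genes, 3 were members, and of those Bbc3 passed while Bax and Apaf1 did not.

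Of 16 genes of the ATF4 and CHOP branch of the stress response, 11 were tested. Of the 11, 4 were higher (36.4%, with 2.27% of all genes tested higher) and 0 were lower. These were the glutathione-degrading enzyme Chac1 (log2 fold change 4.21, SE 0.43), the transcription factor Atf5 (3.11, SE 0.61), Sesn2 again and asparagine synthetase, Asns (1.51, SE 0.18), all with every cKO library above every control. Chac1 and Atf5 had their highest level in cKO replicate 1, at 118.1 and 69.8 CPM, as did Hrk, Bbc3 and 18.1% of all genes tested. Without that library the log2 fold change was 1.76 for Atf5 (adjusted p = 0.0388 by edgeR) and 3.62 for Chac1. Cdkn1a had its highest level, 360.2 CPM, in cKO replicate 3, the highest library for 12.3% of all genes tested. The highest library is not given here for the other called genes of these lists, and whether any of these levels are linked was not tested.

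**Figure D4:**
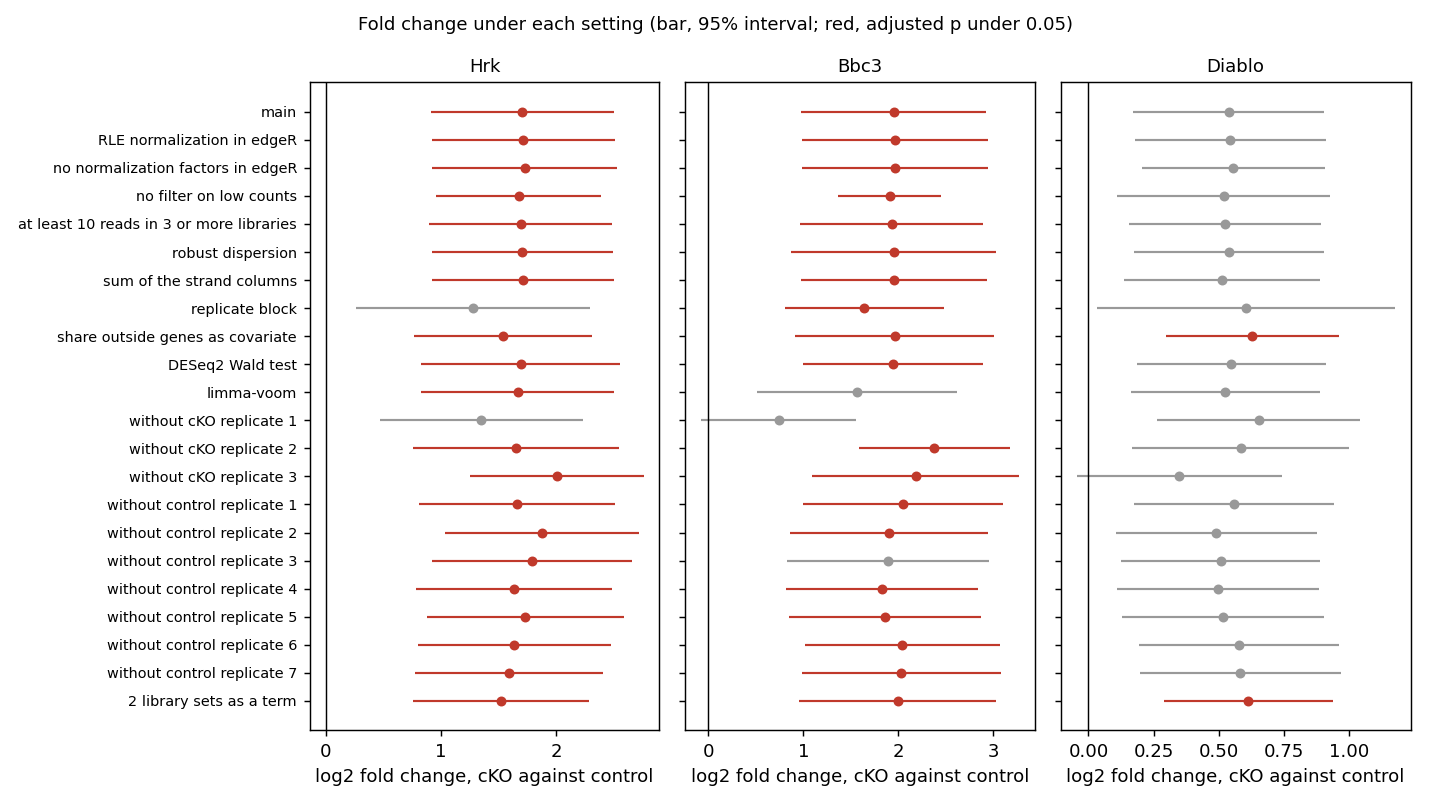
Log2 fold change of Hrk, Bbc3 and Diablo (x axes, cKO against control, with 95% interval) under each setting on the y axis, in red where the adjusted p was under 0.05. Leaving out cKO replicate 1 brought Bbc3 from 1.95 to 0.74 and Hrk from 1.71 to 1.35, both then with an adjusted p above 0.05 with the read minimum in place, while Diablo moved between 0.35 and 0.65.

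Uniquely aligned reads outside genes made up 5.47% to 8.64% in a set of 1 cKO (replicate 3) and 4 control libraries and 12.8% to 16.7% in a set of 2 cKO (replicates 1 and 2) and 3 control libraries. Within the first set the log2 difference of mean CPM plus 0.5 was 0.72 for Hrk and 0.91 for Bbc3, and within the second it was 1.80 and 2.77. For Diablo it was 0.77 and 0.49, for Aifm1 -0.26 and -0.41, and for Bcl2 0.04 and 0.65. Of the 35 tested members, 26 had the same sign in both sets and 9 did not, among them Endog (-0.24 and 0.60) and Ngfr (-3.38 and 1.11). The sets were not tested separately. With the 2 sets as a term in edgeR, chosen after the data were seen, Hrk, Bbc3 and Diablo passed (adjusted p = 0.0288, 0.0353 and 0.0344).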

How the data were processed

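RNA-seq libraries were made with Smart-Seq2, which amplifies full-length cDNA of polyadenylated RNA. According to the methods and the submitters' processing notes, the authors merged technical replicates, aligned reads to GRCm38 with STAR 2.5.0c, kept unique alignments and deposited raw counts of reads per GENCODE M16 gene. Counts that ignore strand were used, since 50.3% to 50.5% of stranded reads were sense. Reads over several genes are missing from them. No molecular identifiers were described, so reads are not molecules, and counting limits cover counting error only. Totals on genes ran from 1738220 to 3362487 per library.

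Genotypes were compared with edgeR 4.0.16 (R 4.3.3; TMM, glmQLFit with legacy = FALSE, glmQLFTest, genotype alone) over the 11551 genes that averaged 10 reads or more, adjusted by Benjamini-Hochberg at 0.05. SEs came from the fitted model. Alternatives used DESeq2 1.42.0, limma 3.58.1 and other filters, scalings, covariates and libraries. The procedure was tested on simulated data. Symbols, positions and exon lengths came from GENCODE M21, and promoters from RefSeq (GRCm38.p6). Among 24 pairs of libraries of 1 genotype the lowest chi-square per degree of freedom was 4.69, so none was a duplicate. The labels call the libraries single individuals; litters were not given.

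Members, lists, motifs and the choice of named genes were made with earlier results of these data known. Members past the adjusted threshold were named in every library, those with an unadjusted p under 0.05 with all cKO values, and in each role group the most abundant and the most changed. Figures were drawn with matplotlib 3.10.9.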

Additional observations from a re-analysis of the deposited data

Results flagged for a closer look

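Among the 7 controls, single libraries stood far above the others for 4 of the 35 tested members. For these, the gap to the next control passed 0.568 of the control range, nominally a matter of chance in about 1 in 20 groups. The share of all genes tested with such a gap was not counted, so the 4 are not shown to be particular to the members. Mcl1 was at 109.9 CPM in control replicate 1, with the next control at 92.1 CPM. Bid was at 55.0 CPM in control replicate 6, with the next at 41.8 CPM. In control replicate 7, Bcl2l13 was at 67.2 CPM and Fadd at 18.8 CPM, with the next controls at 45.0 and 9.90 CPM. None of the 4 genes passed the adjusted threshold with any library left out. Groups of 3 libraries were not examined in this way, so the high value of Bbc3 in cKO replicate 1 falls outside it.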

How the results depend on the processing

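The count of members higher in cKO was 2 under every other filter, scaling, dispersion and count column and in DESeq2, except that 3 passed with every gene with at least 1 read (Pmaip1 added) and with a covariate for, or 2 sets by, the share of reads outside genes (Diablo added). It was 1 in limma-voom, where Bbc3 had an adjusted p of 0.119. Leaving out each library gave 0 to 2: 0 without cKO replicate 1 (1 member, Hrk, when the filter was dropped as well) and 1 without control replicate 3 (Hrk). Dropping the filter also changed the fitted variance, so the calls it added, Hrk and Pmaip1, may overstate the evidence. The count of members lower in cKO was 0 under all 21 alternatives. Depth limits the members under the read minimum, 11 in all, of which Ripk1 also varied with the count column, and the 95% interval of 13 of the 35 tested members reached past a log2 change of 1.

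All genes past the threshold numbered 364, and 961 with every gene with at least 1 read, where 26537 genes were tested, and 271 to 424 with each library left out. Other cell death genes called higher, 1 here, were 2 without the filter and in DESeq2, 0 in limma-voom and 0 to 2 with each library left out. Called genes of the ATF4 and CHOP branch, 4 here, were 9 without the filter, and the cause was not tested. The log2 fold change of Cdkn1c stayed between -4.07 and -3.37 under these 21 alternatives.

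Replicate numbers 1 to 3 occur in both genotypes. Deviations of same-numbered libraries from their group means correlated at 0.05, -0.10 and -0.21, and no library correlated best with its own number, so the libraries share only a number. With a replicate block, 213 genes and 1 member passed (Bbc3, log2 fold change 1.64, adjusted p = 0.022), and Hrk had 1.28 (adjusted p = 0.248).

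The sign of the log2 fold change held under the 21 alternatives that change 1 choice for 24 of the 35 tested members, Hrk and Bbc3 among them, though Cflar, one of the 24, had -0.0014 without both the filter and cKO replicate 1. None of the other 11 was past the threshold under those 21. Bcl2l1, at -0.003, had 0.0054 with RLE scaling, 0.0125 with no scaling factors, 0.0003 with the sum of strand counts, 0.0256 with the block, 0.0035 in DESeq2, 0.0451 with the covariate and 0.0585 with the 2 sets. Htra2 had -0.0015 without the filter, -0.25 with the block and -0.0423 in limma-voom. Apaf1 had -0.0007 with the block, and Xiap -0.0426 with the covariate and -0.0467 with the 2 sets. With each library left out, Bcl2l1 ran from -0.35 to 0.21, Htra2 from -0.36 to 0.35, Apaf1 from -0.0439 to 0.45, Xiap from -0.21 to 0.22, Bad from -0.0444 to 0.26, Bcl2l11 from -0.14 to 0.59, Birc6 from -0.0649 to 0.41, Bnip3l from -0.23 to 0.0211, Bok from -0.53 to 0.21, Dffa from -0.89 to 0.11 and Ngfr from -1.21 to 0.15.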
